A study of Mus musculus with 8 samples.

Results

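The genes described here are the 7 that carry out or switch on antigen presentation by MHC class II molecules: H2-Aa, H2-Ab1, H2-Eb1, H2-DMa, H2-DMb1, Cd74 and Ciita. They were chosen by symbol from the 50462 gene identifiers of the table, and each was found once. Expression was measured by RNA-Seq in cartilage caps of the medial knee from 8 male wild-type C57BL/6J mice, 1 library per mouse. Naive mice (n = 4) had no operation and gave their cartilage at day 0, at 11 weeks of age. DMM mice (n = 4) were operated at 11 weeks of age, when the ligament holding the medial meniscus of the left knee was cut, and gave theirs at day 42, at 17 weeks of age. Destabilisation of the medial meniscus (DMM) is a surgical model of post-traumatic osteoarthritis. No sham-operated mice were analysed here, so surgery and age cannot be told apart. The labels call the cells chondrocytes, but a dissected cap can hold other cells too.

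MHC class II molecules are pairs of an alpha and a beta chain that show peptides from ingested proteins to CD4+ T cells. B cells and dendritic cells carry them at all times, macrophages can carry them, and interferon gamma can switch them on in many other cells. H2-Aa and H2-Ab1 encode the chains of I-A, and H2-Eb1 encodes the beta chain of I-E. C57BL/6 mice make no I-E on the cell surface, because their gene for the I-E alpha chain, H2-Ea-ps, is defective. Cd74 encodes the invariant chain, which blocks the peptide groove until the molecule reaches the endosome. There a remnant of the invariant chain is exchanged for a peptide by H2-DM, a pair made of H2-DMa and an H2-DMb chain. Ciita encodes the transactivator that is needed for all of these genes. It binds no DNA itself, and is held at their promoters by the RFX complex on the X box and by NF-Y on the Y box.

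The I-A, I-E and H2-DM genes lie together on mouse chromosome 17, and their promoters were searched for the boxes through which Ciita acts. In GRCm38 coordinates, H2-DMa spans 34119541 to 34139101, H2-DMb1 34153072 to 34160230, H2-Ab1 34257689 to 34269419, H2-Aa 34282744 to 34287823 and H2-Eb1 34305867 to 34316674. H2-Aa is on the minus strand and the other 4 are on the plus strand. Ciita lies on chromosome 16, from 10480059 to 10528418 on the plus strand. An X box core (GCAAC) followed by a Y box (ATTGG) with 20 to 40 bases between them was sought in the 250 bases before each RefSeq gene start (GRCm38.p6). This order of boxes was present on the strand of the gene in 143 of 32851 promoters (0.435%) and on either strand in 0.843%. ATTGG alone was present on either strand in 33.8%. Of the 10 genes sought, Ciita among them, 8 had an entry. The boxes were held by 5 of these (H2-Aa, H2-Eb1, H2-Eb2, H2-Oa and H2-Ob) and not by 3 (H2-DMa, H2-DMb1 and H2-DMb2). H2-Ab1 had no entry, nor did Ciita. The windows of H2-Aa and H2-Eb1 are shown because they are members whose promoters held both boxes, that of H2-Eb2 because it held the boxes at the spacing of H2-Eb1 while its transcript was close to undetected, and that of H2-Ob because its levels followed those of the members (both described further on). Each is read 5′ to 3′ on the strand of the gene, with the X box core and the Y box in capitals. They come from chr17:34287859-34287912, chr17:34305768-34305820, chr17:34325535-34325587 and chr17:34238810-34238860.
H2-Aa: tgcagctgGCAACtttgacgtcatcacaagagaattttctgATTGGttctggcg
H2-Eb1: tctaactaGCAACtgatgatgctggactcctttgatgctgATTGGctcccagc
H2-Eb2: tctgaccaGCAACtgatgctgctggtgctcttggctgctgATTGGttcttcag
H2-Ob: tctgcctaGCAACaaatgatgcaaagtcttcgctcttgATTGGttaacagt
The 2 boxes were 28 bases apart in H2-Aa, 27 in H2-Eb1 and H2-Eb2, and 25 in H2-Ob. The X box core began 81 bases before the gene start in H2-Aa and 91 bases before it in H2-Eb1. A match is a run of letters and not a measured binding site, and its absence from a window says nothing about the factor.

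All 7 genes were expressed in every library, and none was called different between naive and DMM cartilage. A gene was called when DESeq2's Wald test gave a p of at most 0.05 after Benjamini-Hochberg adjustment over all genes and the change reached 1.5-fold. By this rule 13.0% of the 18707 genes tested were called, with 7.38% higher and 5.63% lower in DMM, against 0 of the 7 class II genes. Dividing by the total count instead gave 2522 calls, 2036 of them higher in DMM against 1380 here, and moved the median log2 fold change of all genes from -0.014 to 0.14. None of the 7 was called by edgeR's quasi-likelihood test or by limma-voom, and none had an unadjusted p under 0.05 in DESeq2. Naive and DMM values were fully apart for 21.4% of all genes tested, and for 0 of the 7. Their log2 fold changes (DMM over naive) were positive for 5 and negative for 2, with a median of 0.16 beside -0.014 for all genes tested (6 positive, H2-DMb1 among them, and a median of 0.32 under the total count). The 95% interval lay within a 1.5-fold change in either direction for 3 of them (H2-Ab1, H2-DMb1 and Cd74). For the other 4 the interval reached past 1.5-fold, so a change of that size was neither shown nor excluded. These intervals are those of the main fit and depend on its size factors. Under the total count the log2 fold change was 0.21 for H2-Ab1, 0.13 for H2-DMb1 and 0.33 for Cd74.

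The I-A and I-E chains changed by less than the spread between mice. All values in this paragraph are normalised counts (estimated counts divided by DESeq2's size factor). H2-Aa, the I-A alpha chain, was at 1303, 1426, 889 and 992 in naive libraries 1 to 4, and at 1737, 1505, 1017 and 986 in DMM libraries 1 to 4. The log2 fold change of H2-Aa was 0.19 (SE 0.21, DESeq2 adjusted p = 0.613). Libraries 1 and 2 were the higher pair in both groups, and the highest library of all was DMM 1. H2-Ab1, the I-A beta chain, was at 2215, 2318, 1650.3 and 1702 in the naive libraries and at 2656, 2303, 1669 and 1523 in the DMM libraries. For H2-Ab1 the log2 fold change was 0.048 (SE 0.19, adjusted p = 0.907), with a 95% interval from 0.796-fold to 1.34-fold. The naive and DMM ranges lay almost on top of each other. H2-Eb1, the I-E beta chain, was at 1324, 1348, 813 and 913 in the naive libraries and at 1669, 1414, 933 and 889.9 in the DMM libraries. The change in H2-Eb1 was 0.16 on the log2 scale (SE 0.23, adjusted p = 0.710), and again libraries 1 and 2 stood above 3 and 4 in both groups.

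The H2-DM genes were lower in level and were the members with negative fold changes. H2-DMa, the alpha chain of the peptide exchanger, was at 208, 226, 176 and 179 normalised counts in the naive libraries and at 186, 206, 156 and 117 in the DMM libraries. Its log2 fold change was -0.25 (SE 0.20, adjusted p = 0.420), and the groups overlapped through DMM 1 and 2. H2-DMb1, a beta chain of the same pair, was at 186, 182, 153 and 156 in the naive libraries and at 193, 187, 164 and 121 in the DMM libraries. H2-DMb1 had a log2 fold change of -0.027 (SE 0.18, adjusted p = 0.948), with a 95% interval from 0.764-fold to 1.26-fold. DMM 4 was the lowest library for both genes. These counts are less certain than those of the other members: 31.4% of the 31-base words in H2-DMb1 transcripts also occur in H2-DMb2, and 9.23% of those in H2-DMa transcripts occur in Brd2 on the opposite strand, whose exons overlap H2-DMa by 360 bases. Reads from such stretches can be divided between the genes, and the study did not state whether counting used strand.

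Cd74 had the most normalised counts of the members, and Ciita had fewer than the I-A and I-E chains. Cd74, the invariant chain, was at 4481, 5646, 3430.2 and 3634 normalised counts in the naive libraries and at 5959, 5919, 3861 and 3506 in the DMM libraries. Its log2 fold change was 0.16 (SE 0.21, adjusted p = 0.663), and its 95% interval ran from 0.842-fold to 1.49-fold. Naive 2 lay with the high DMM pair rather than with its own group. Ciita, the transactivator, was at 357, 346, 225 and 224 in the naive libraries and at 583, 480.5, 254 and 239 in the DMM libraries. It had the largest fold change of the 7, 0.43 on the log2 scale (SE 0.29, adjusted p = 0.315), with an interval from 0.913-fold to 1.998-fold. That difference came from DMM 1 and 2, which were above every naive library, while DMM 3 and 4 lay inside the naive range. Without DMM 1 the log2 fold change of Ciita was 0.17, and without DMM 4 it was 0.61. Of its 31-base words, 2.28% also occur in Dexi, which overlaps its exons by 329 bases on the opposite strand.

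**Figure D1:**
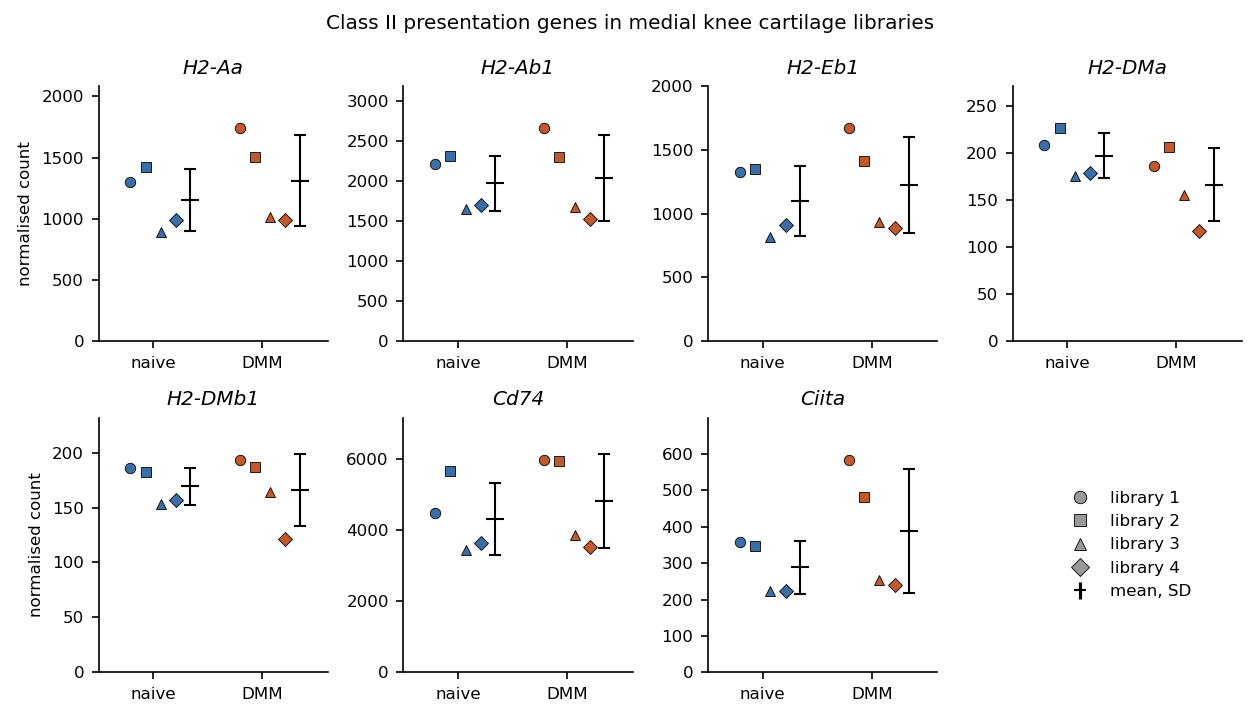
Normalised counts (linear axis from 0) of the 7 class II genes in 4 naive and 4 DMM libraries, 1 point per mouse, with marker shapes for the library number and bars for the mean and SD. Libraries 1 and 2 lie above libraries 3 and 4 in both groups for all 7 genes, and the groups overlap for each gene.

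Taken per kilobase of transcript, which allows levels to be compared between genes, the 7 genes kept nearly the same order in every library. Each normalised count was divided by the length of the longest principal transcript. Cd74 was highest at 3048 ± 715 (SD, n = 4) normalised counts per kilobase in the naive and 3412 ± 929 in the DMM mice (SD, n = 4). H2-Ab1 followed at 1626 ± 284 in naive and 1681 ± 440.1 in DMM libraries, then H2-Aa at 1022 ± 225 and 1163 ± 328, and H2-Eb1 at 659 ± 165 and 735 ± 227 (SD, n = 4 each). H2-DMb1 and H2-DMa were near each other, at 121 ± 12.1 and 119 ± 14.6 in naive and at 118 ± 23.3 and 100.3 ± 23.4 in DMM (SD, n = 4 each). Ciita came last at 48.0 ± 12.2 in naive and 64.8 ± 28.3 in DMM (SD, n = 4 each). The order within a library was the same in 7 of the 8 libraries, and in naive 2 H2-DMa stood above H2-DMb1. Over all libraries the mean level of Cd74 per kilobase was 57.3 times that of Ciita. The neighbours H2-DMb1 and H2-DMa did not differ beyond their spread, whereas the places of Cd74, H2-Ab1, H2-Aa and H2-Eb1 were held in every library.

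Together the 7 genes made up a small part of the RNA. They took 0.0706%, 0.0684%, 0.0510% and 0.0542% of the estimated counts in naive libraries 1 to 4, and 0.0966%, 0.0895%, 0.0591% and 0.0563% in DMM libraries 1 to 4. The means were 0.0610% ± 0.00989 in naive and 0.0754% ± 0.0206 in DMM (SD, n = 4), and the groups overlapped. This share rests on 6854 to 15655 estimated counts per library.

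The balance between partner chains was steadier than their levels, and was compared as a ratio of normalised counts in each library. H2-DMa over H2-DMb1 was 1.12, 1.24, 1.15 and 1.145 in naive libraries 1 to 4 and 0.961, 1.10, 0.950 and 0.970 in DMM libraries 1 to 4. Every naive ratio was above every DMM ratio, with the nearest pair at 1.12 and 1.10. The mean difference was -0.23 on the log2 scale (two-sided exact permutation test over 70 assignments, p = 0.0286, the smallest this design allows), but the value adjusted over the 4 ratios was 0.114 and did not pass 0.05. With H2-DMb2, the other H2-DM beta chain, added to H2-DMb1, the difference was -0.27 (exact permutation p = 0.0286). This ratio was chosen after the data were seen, and its p was not adjusted. H2-DMb1 and H2-DMb2 share words, so this sum does not depend on how reads were divided between them. The words that H2-DMa shares with Brd2, and H2-DMb2 with further genes, still leave the ratio uncertain.

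H2-Aa over H2-Ab1, the alpha and beta chains of I-A, was 0.588, 0.615, 0.539 and 0.583 in the naive libraries and 0.654, 0.654, 0.610 and 0.647 in the DMM libraries. DMM libraries 1, 2 and 4 were above every naive library, and DMM 3 lay just under naive 2. The log2 difference was 0.14 (exact permutation test, two-sided p = 0.0571, adjusted over 4 ratios 0.114). H2-Eb1 over H2-Ab1 was 0.493 to 0.598 in naive and 0.559 to 0.628 in DMM libraries, a log2 difference of 0.11 (exact permutation p = 0.171, adjusted 0.229). Cd74 over the sum of H2-Aa and H2-Ab1 was 1.27 to 1.51 in naive and 1.36 to 1.55 in DMM libraries, a log2 difference of 0.069 (exact permutation p = 0.343, adjusted 0.343). In this ratio library 2 was the highest of each group, and the difference was the smallest of the 4.

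**Figure D2:**
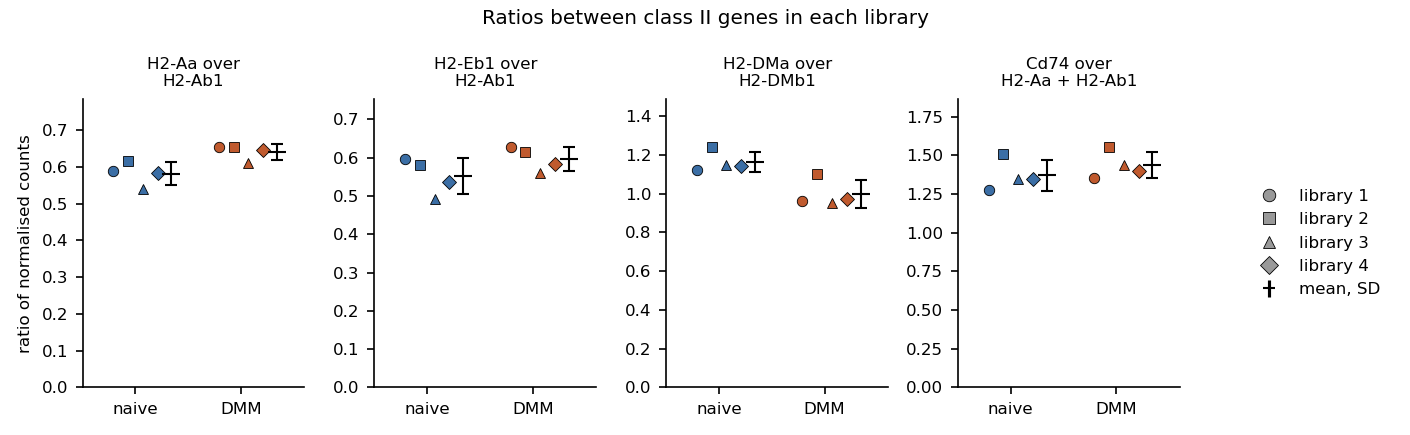
Ratios of normalised counts between class II genes in each library (linear axes from 0), 1 point per mouse, with the mean and SD beside each group. H2-DMa over H2-DMb1 is 1.12 to 1.24 in naive and 0.950 to 1.10 in DMM libraries, and the other 3 ratios overlap between the groups.

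Within each group the 7 genes went up and down together from mouse to mouse. In naive and in DMM mice alike, libraries 1 and 2 were above libraries 3 and 4 for 7 of the 7 genes. The same order in both groups was found for 6.72% of all genes tested. Averaged over the 7 genes as log2 values centred on their mean over the 8 libraries, the level was 0.15, 0.24, -0.31 and -0.24 in naive libraries 1 to 4 and 0.44, 0.32, -0.21 and -0.40 in DMM libraries 1 to 4. Over the 21 pairs of members, Pearson's r across the 8 libraries was 0.526 to 0.994 with a median of 0.885. After centring within each group it was 0.847 to 0.996 with a median of 0.938. The highest r over the 8 libraries was that of H2-Eb1 with H2-Aa, and the lowest was that of Ciita with H2-DMa. These values describe 8 libraries that share their size factors and are not a test. The numbers of the libraries are names: the labels tie no naive mouse to a DMM mouse.

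Transcripts of B cells, which carry class II at all times, followed much of the same order. Summed over the 12 B cell markers, normalised counts were 5121, 5804, 4505 and 3312 in naive libraries 1 to 4 and 6222, 9175, 3710.2 and 3504.5 in DMM libraries 1 to 4. DMM 1 and 2 were highest in this list as in the mean level of the class II genes, but DMM 2 stood far above DMM 1 here and not there. Of the class II genes, H2-DMa and H2-Ab1 were higher in naive 2 than in DMM 2. All 12 markers had counts, and 0 of them were called, with a median log2 fold change of 0.33 (1 called, Cr2, and 0.50 under the total count). Cd79a, a signalling chain of the B cell receptor, was at 552, 719.7, 545 and 397 in the naive libraries and at 746, 1291, 533 and 458 in the DMM libraries, with a log2 fold change of 0.45 (SE 0.29, adjusted p = 0.286 in DESeq2). The mean level of the B cell markers had r = 0.86 with that of the class II genes over the 8 libraries. With that level as a covariate, added after the data were seen, the log2 fold changes were 0.031 for H2-Aa, -0.092 for H2-Ab1, -0.015 for H2-Eb1, -0.37 for H2-DMa, -0.12 for H2-DMb1, -0.0044 for Cd74 and 0.16 for Ciita, and again none of the 7 was called. In bulk tissue, fewer cells of a type and less RNA per cell cannot be told apart. The part of B cell RNA in the class II levels was not tested.

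As lists, markers of dendritic cells and macrophages, which can also carry class II, had lower mean-level correlations with these genes, but single markers overlapped. Over the 8 libraries, B cell markers ran from r = 0.406 (Cr2) to 0.925 (Blk). Dendritic cell markers compared in this way ran from -0.671 (Clec9a) to 0.897 (Ccr7), and macrophage markers from -0.161 (Cd68) to 0.797 (C1qb). Summed normalised counts of the 10 dendritic cell markers were 927 to 1127 in naive and 865 to 1001 in DMM libraries, and their mean level had r = 0.56 with that of the class II genes. None of the 10 was called, 5 log2 fold changes were positive and 5 negative, and the median was -0.011 (7 positive and 0.14 under the total count). Flt3, a receptor needed for dendritic cell development, passed the adjusted p with a log2 fold change of -0.42, and so did Siglech, a marker of plasmacytoid dendritic cells, at -0.56. The largest positive value was that of Cd209a, at 0.34 (adjusted p = 0.491 in DESeq2). The 12 macrophage markers summed to 8217 to 9503 in naive and 7293 to 9082 in DMM libraries (r = 0.43). Cd163, a scavenger receptor of resident macrophages, was the 1 macrophage marker called, and it was lower in DMM (log2 fold change -0.88, SE 0.19, DESeq2 adjusted p = 0.000133). This was 1 call among 11 macrophage markers tested, beside 13.0% of all genes tested. Marco, another scavenger receptor of macrophages, was near 0 in every library. Csf1r and Cd68, defining macrophage genes, were present in all libraries, at 1848 to 2856 and 536 to 694 normalised counts.

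**Figure D3:**
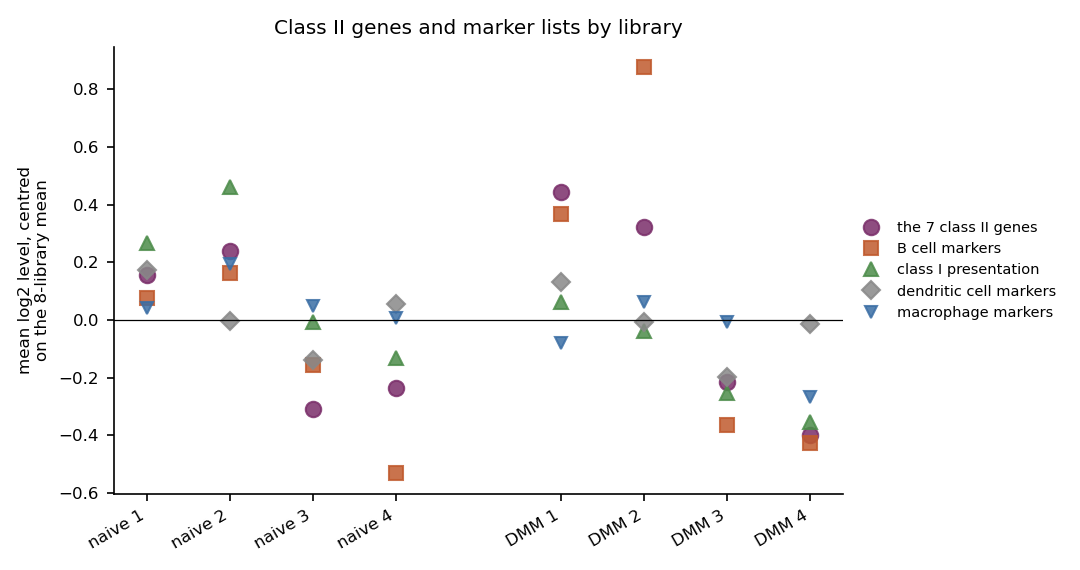
Mean log2 level of the 7 class II genes and of 4 gene lists in each of the 8 libraries, each gene centred on its mean over all libraries (vertical axis, log2 units). The class II genes run from -0.40 to 0.44 and are above 0 in libraries 1 and 2 of both groups, as are the B cell markers, which reach 0.88 in DMM 2.

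Among the other class II chains, 0 of the 4 with an adjusted p were called, and their log2 fold changes were all positive with a median of 0.15. H2-Ob, the beta chain of H2-O, which restrains H2-DM and is made mainly in B cells, was at 193, 186, 132 and 130.4 normalised counts in the naive libraries and at 286, 291, 168 and 107 in the DMM libraries. This gave H2-Ob a log2 fold change of 0.41 (SE 0.30, adjusted p = 0.365), and libraries 1 and 2 stood above 3 and 4 in both groups, as for the members. H2-Oa, its alpha partner, was far lower at 18.1 to 36.1 in naive and 22.6 to 41.9 in DMM libraries (log2 fold change 0.10, SE 0.34). H2-DMb2 was at 109, 95.8, 55.7 and 77.1 in the naive libraries and at 132, 134, 57.6 and 53.2 in the DMM libraries (log2 fold change 0.16, SE 0.34). Over the 8 libraries H2-DMb2 (r = 0.953) and H2-Ob (r = 0.938) had the levels most like the members among the genes of all lists. After centring within groups, the class I gene H2-K1 was most like them (r = 0.968), above H2-Ob (r = 0.957) and H2-DMb2 (r = 0.954). H2-Eb2, whose promoter carried both boxes, had no more than 23.7 normalised counts in a library (log2 fold change 0.15, SE 0.53). H2-Ea-ps had at most 1.13 normalised counts in any library, beside 813 to 1669 for H2-Eb1. Of H2-Oa transcripts, 18.3% of the words are shared with the antisense gene BC051537, so its level is uncertain.

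The factors that hold Ciita at its promoters had a mean level with r = -0.17 to that of the members over the 8 libraries. Of the 7 factors, none was called, 2 log2 fold changes were positive and 5 negative, and the median was -0.062 (4 positive and 0.092 under the total count). Of the RFX complex, Rfx5 was at 201 to 289 normalised counts in naive and 201 to 288 in DMM libraries (log2 fold change 0.12, SE 0.18). Rfxank had a log2 fold change of 0.069 (SE 0.16) and Rfxap of -0.022 (SE 0.15). The 3 NF-Y subunits had negative values. Nfyb passed the adjusted p at less than the 1.5-fold change (log2 fold change -0.44, SE 0.17, DESeq2 adjusted p = 0.0438), but not in edgeR (adjusted p = 0.0813). It was at 748, 726, 713 and 630.4 in the naive libraries and at 406, 426, 651 and 592 in the DMM libraries. Within DMM, libraries 1 and 2 had most Ciita and least Nfyb, whereas within naive, libraries 1 and 2 had most of both. Nfya was at -0.21 (SE 0.13) and Nfyc at -0.22 (SE 0.10) on the log2 scale, with adjusted p of 0.263 and 0.119 in DESeq2. Creb1, which binds beside the X box, was at -0.062 (SE 0.10).

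The steps before and after peptide loading were also measured. Of 11 genes of endosomal processing and trafficking, 0 were called, 7 log2 fold changes were positive and the median was 0.14 (8 positive and 0.30 under the total count). Lgmn, an asparaginyl endopeptidase of the endosome, passed the adjusted p at less than 1.5-fold, from 1044 ± 91.2 in naive to 1385 ± 69.6 normalised counts in DMM (SD, n = 4), with groups that did not overlap (log2 fold change 0.41, SE 0.10, DESeq2 adjusted p = 0.000645). March8, a ubiquitin ligase of membrane proteins, passed it in the other direction, also at less than 1.5-fold (log2 fold change -0.57, SE 0.17, adjusted p = 0.00571). March1, the ligase that removes class II from the surface of B cells and dendritic cells, was at -0.17. Ctss, the protease that trims the invariant chain in these cells, went from 2179 ± 216 to 1911 ± 54.4 normalised counts (log2 fold change -0.19, SE 0.10, adjusted p = 0.176).

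Of the 5 costimulation genes tested, 1 was called, beside 13.0% of all genes tested. Cd274, which encodes the inhibitory ligand PD-L1, was at 207, 216, 306 and 282 normalised counts in the naive libraries. In the DMM libraries it was at 168, 153, 134 and 200.4, with no overlap, as for 21.4% of all genes tested. It fell in DMM (log2 fold change -0.62, SE 0.19, DESeq2 adjusted p = 0.00832). The call was lost when naive 3, naive 4 or DMM 3 was left out, with log2 fold changes of -0.52, -0.57 and -0.54, and under the total count it was -0.48. Cd40, Cd80, Cd86 and Icosl lay between -0.21 and 0.21 on the log2 scale.

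Class I genes, which show peptides of the cell's own proteins to CD8+ T cells, had negative fold changes where most class II genes had positive ones. All 11 log2 fold changes were negative, with a median of -0.28, and 1 gene was called, beside 13.0% of all genes tested. Under the total count 9 were negative, with a median of -0.12, and 0 were called. Psmb9, a subunit of the immunoproteasome, was at 240.1, 253, 215 and 164 normalised counts in the naive libraries and at 189.9, 125, 123 and 124 in the DMM libraries. It fell by 0.63 on the log2 scale (SE 0.21, DESeq2 adjusted p = 0.0146), although DMM 1 lay inside the naive range. That call was lost when naive 1, naive 2, DMM 2, DMM 3 or DMM 4 was left out (log2 fold changes of -0.58, -0.56, -0.58, -0.57 and -0.57). Tap2, of the peptide transporter, passed the adjusted p at less than 1.5-fold (log2 fold change -0.39, SE 0.13, adjusted p = 0.0206). Nlrc5, the transactivator of class I genes and a relative of Ciita, was at 611, 557, 365 and 322 in the naive libraries and at 645, 473, 321 and 325 in the DMM libraries (log2 fold change -0.073, SE 0.26). For both transactivators libraries 1 and 2 stood above 3 and 4 in each group, and Nlrc5 had r = 0.90 with the class II genes over the 8 libraries. The mean level of the class I list had the same order in each group. Centred on the 8 libraries, it was 0.27, 0.46, -0.0060 and -0.13 in naive libraries 1 to 4. In DMM libraries 1 to 4 it was 0.061, -0.038, -0.25 and -0.35. Its r with the mean level of the class II genes was 0.65. No test of the difference between the class I and class II lists was made.

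The transcript of interferon gamma, the main inducer of Ciita outside the professional cells, was hardly present, and the protein was not measured. Ifng had at most 2.49 normalised counts in any library. Of the 8 other genes of its signalling path, 0 were called and the median log2 fold change was -0.18 (-0.026 under the total count). Irf8, a factor of myeloid and B cells, passed the adjusted p at less than 1.5-fold (log2 fold change -0.44, SE 0.14, DESeq2 adjusted p = 0.0151). Irf1, which acts on the Ciita promoter after interferon, was at -0.20 (SE 0.15, adjusted p = 0.377).

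**Figure D4:**
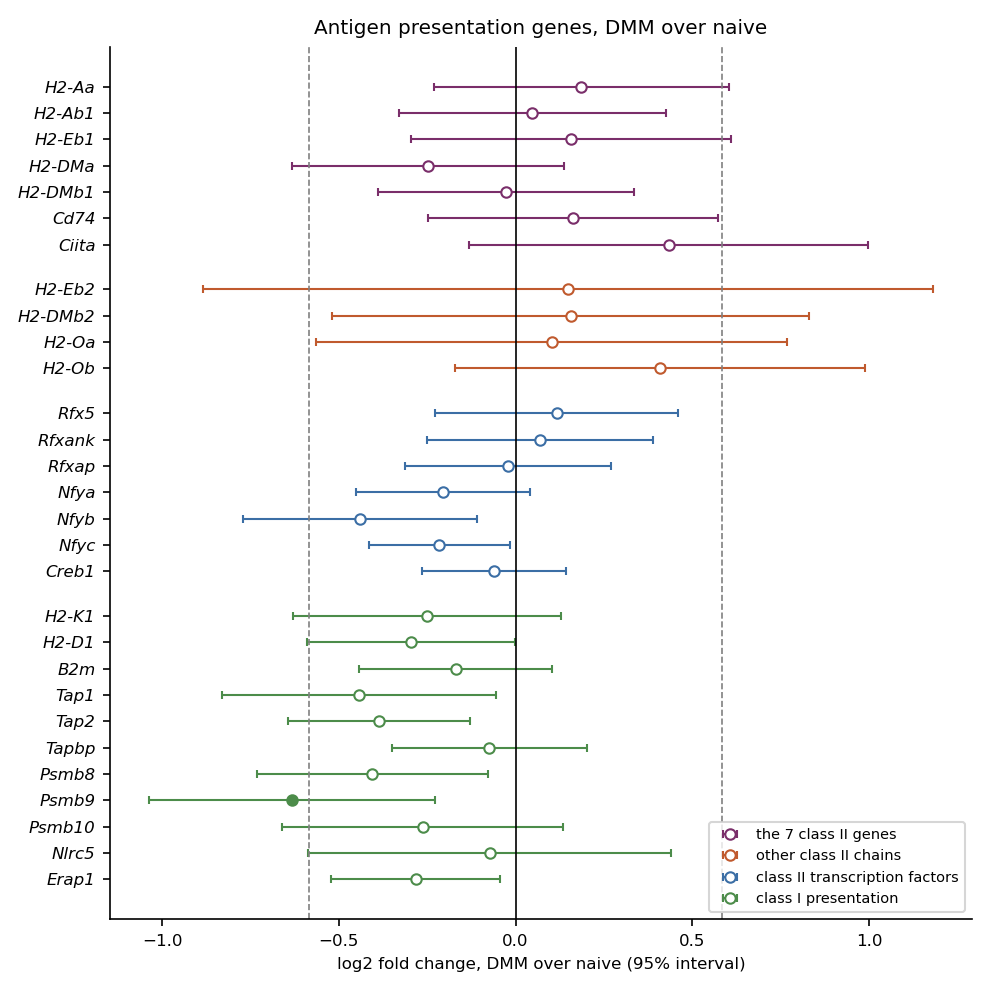
Log2 fold changes (DMM over naive, horizontal axis) with 95% intervals for the 7 class II genes, other class II chains, class II transcription factors and class I genes, with dashed lines at 1.5-fold and a filled point for a called gene. The intervals of the 7 class II genes all contain 0, and Psmb9 is the only filled point.

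Outside the 7, 15954 genes averaged 20 normalised counts or more. Of these, those whose levels were most like theirs over the 8 libraries were Snord17 (r = 0.991), Lfng (r = 0.978), Zfyve26 (r = 0.976), Gramd4 (r = 0.973) and Ehmt2 (r = 0.971). After centring within groups they were Snord17 (r = 0.992), Gtf3c1 (r = 0.9898), Hnrnpa0 (r = 0.987), Slc9a7 (r = 0.987) and Scap (r = 0.986). Snord17, a small nucleolar RNA, was at 4042, 4245, 3027 and 3276 normalised counts in the naive libraries and at 5143, 4492, 3173 and 2680 in the DMM libraries. None of these 9 genes is a class II gene, and none was called. The values come from 8 libraries with common size factors and carry no statement on function.

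The libraries held 12479443 to 16548002 estimated counts and 16861 to 19343 genes with 10 or more counts. Over all genes tested, 7.38% were called higher and 5.63% lower in DMM. Chondrocyte transcripts were abundant: Col2a1, the main cartilage collagen, was at 15101 to 36986 normalised counts in naive and 40178 to 97826 in DMM libraries. Of 12 chondrocyte markers 5 were called higher (Acan, Col2a1, Col11a1, Comp and Sox9) and 0 lower. In that list 9 log2 fold changes were positive and 3 negative. Blood and marrow transcripts were abundant too. All 8 neutrophil lineage markers (S100a8, S100a9, Elane, Mpo, Ngp, Ltf, Camp and Retnlg) were lower in DMM, by log2 fold changes of -0.77 to -1.07, with summed normalised counts of 118356 to 178331 in naive and 51709 to 106636 in DMM libraries. Of the 6 erythroid markers 5 were lower, among them Hba-a1, Hba-a2, Hbb-bt and Alas2, with sums of 141941 to 281245 and 72969 to 158366. Of 7 T cell markers 1, Cd3d, was called and was lower (log2 fold change -0.88). In that list 4 log2 fold changes were negative and 3 positive (Cd3g, Cd8a and Cd5). Of 6 endothelial markers Cdh5 (0.63) and Emcn (0.69) were higher and Vwf (-0.72) was lower on the log2 scale. When each library was left out in turn, calls were kept in all 8 fits except for S100a8 (6), Retnlg (5), Hba-a2 (3), Hbb-bt (6), Alas2 (6), Cd3d (7), Cdh5 (7), Emcn (4) and Vwf (7). Under the total count 6 neutrophil lineage and 5 erythroid markers were called lower. In that setting 0 T cell markers were called, and of the endothelial markers 3 were called higher and 0 lower. S100a8, Retnlg and Cd3d did not pass 0.05 in edgeR (adjusted p = 0.0724, 0.0621 and 0.0571), nor in limma-voom. The class II level had r = -0.43 with the neutrophil lineage list and r = -0.094 with the erythroid list over the 8 libraries. Their part in the class II levels was not tested.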

How the data were processed

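The deposited table holds estimated counts per gene, which the authors obtained from Trimmomatic-trimmed reads with Kallisto, a pseudo-aligner, and gathered per gene with tximport. Their methods name GRCm38 with an Ensembl release of a later assembly, the submitters' processing notes list a human build, and labels and methods name different library kits, so build and kit are uncertain. Whether counting used strand was not stated.

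Counts were rounded to whole numbers. The main test was the Wald test of DESeq2 (version 1.42.0, R 4.3.3), which the study names, over all 8 libraries with the tool's default size factors and filters and no covariate. Members were read from the fit over the whole table. Alternatives were edgeR 4.0.16 (quasi-likelihood), limma 3.58.1 (voom), TMM or total count factors, other count filters, no fold threshold, the replicate number as a block and leaving out each library. A B cell covariate and a ratio with H2-DMb2 added were chosen after seeing the data. The fits were first tested on simulated data. Each library is 1 mouse. Ratios were compared by exact permutation. Lengths, overlaps and gene coordinates are from GENCODE vM21, promoters from RefSeq. Shared words are 31-base runs.

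The members and lists were chosen with earlier results of these data known. Genes named are the members, called genes of the lists, class II chains and their factors, the 5 genes most like the members over 8 libraries and the 5 after centring within groups, and markers given beside a result. Genes past the adjusted p but under 1.5-fold, and those of each list that stand for a step, were named after their values were seen. Estimated counts per library set the precision of low genes. Gene sets were not tested. Results for a few marker and signalling genes are not reported here.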

Additional observations from a re-analysis of the deposited data

Results flagged for a closer look

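In 5 of the 66 groups of 4 libraries examined, 1 library stood apart from the other 3 by Dixon's 95% criterion, where chance flags about 1 in 20 groups (3.3 of 66). The normalised count of H2-Eb2 was 23.7 in naive 1 and 7.49 to 10.2 in the other naive libraries, and it was 20.7 in DMM 1. Psmb9 was at 189.9 in DMM 1 against 123 to 125 in the 3 others of its group. The ratio of H2-Aa over H2-Ab1 was 0.610 in DMM 3 against 0.647 to 0.654 in the others. The ratio of H2-DMa over H2-DMb1 was 1.10 in DMM 2 against 0.950 to 0.970 in the others. The summed erythroid markers reached 158366 normalised counts in DMM 3 against 72969 to 77948 in the others.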

How the results depend on the processing

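None of the 7 class II genes was called under any of the 17 alternatives run, whereas the count of called genes over the whole table was 2434 in the main test, 3975 with no fold threshold and 1851 to 2855 with 1 library left out. The replicate block gave 2079 calls over the whole table and a log2 fold change of 0.17 for H2-Aa and of 0.37 for Ciita. Over genes averaging 20 normalised counts or more, centred within groups, libraries of the same number had correlations of 0.0072, 0.093, -0.20 and 0.0999. These values are taken over many genes and cannot decide whether the mice were paired. For all 7 class II genes, libraries 1 and 2 stood above 3 and 4 in both groups. H2-Aa, H2-DMa and Ciita kept their direction in all 16 alternatives run for each gene. With 1 library left out, log2 fold changes ran from -0.11 to 0.17 for H2-Ab1 (negative without naive 3, naive 4, DMM 1 or DMM 2), from -0.029 to 0.28 for H2-Eb1 (negative without DMM 1), from -0.11 to 0.099 for H2-DMb1 (positive without naive 1, naive 2 or DMM 4), from -0.061 to 0.35 for H2-DMb2, from -0.067 to 0.24 for H2-Oa, from -0.011 to 0.15 for Rfxank and from -0.0799 to 0.066 for Rfxap. With the B cell level as covariate, H2-Ab1 turned to -0.092, H2-Eb1 to -0.015, Cd74 to -0.0044, H2-DMb2 to -0.17 and H2-Oa to -0.048. With the total count as size factor, H2-DMb1 turned to 0.13, Rfxap to 0.14 and Creb1 to 0.092, and Rfxap was 0.0027 with limma-voom and 0.0043 with TMM factors. The cause was not tested. With 1 library left out, the log2 difference lay between -0.28 and -0.20 for H2-DMa over H2-DMb1, 0.11 and 0.17 for H2-Aa over H2-Ab1, 0.060 and 0.15 for H2-Eb1 over H2-Ab1, and 0.030 and 0.12 for Cd74 over H2-Aa plus H2-Ab1. With 3 mice against 4 the exact test cannot go below 0.0571. H2-Eb2, with the lowest counts of the chains tested, had an adjusted p in 10 of the 16 alternatives.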
